A study of Mus musculus with 12 samples.

Results

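Total CD8+ T cells of uMT mice were compared with total CD8+ T cells of wild-type (WT) mice, on 6 of the 12 Agilent 1-colour arrays of the study. The uMT arrays were chosen by their titles, 1 from peripheral lymph nodes (PLN) and 1 from the lymph nodes of the gut mesentery (MLN), and the WT arrays were the 2 PLN and 2 MLN arrays of total cells. All mice were female C57BL/6 mice, the cells were CD8+ T cells purified with magnetic beads and by flow sorting, and the labels give no age and no treatment. The other 6 arrays held AID KO total cells (1 PLN and 1 MLN array) and naive cells. The naive cells, with low CD44, came from PLN of AID KO and uMT mice, each as Sca1p and Sca1m cells. These 6 arrays entered the fit to estimate the spread, and AID KO against WT and naive uMT against AID KO were also read from it. The uMT PLN array shared slide 2 with WT PLN 2, which the labels name as its control, and the uMT MLN array shared slide 1 with WT MLN 1, so that lymph node and slide cannot be told apart within uMT. The submitters describe a design without replicates and nothing says that the WT arrays came from separate animals, so that p-values measure departures from the additive terms of the fit, which may be technical.

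The uMT mutation disrupts the membrane form of the immunoglobulin mu heavy chain, and B cells that cannot display this chain do not complete their development, so that these mice lack mature B cells. T cells still develop in such mice, and their lymph nodes lack B cell follicles. CD8+ T cells kill infected cells and respond to type I interferons through the receptor Ifnar1 and Ifnar2 and factors such as Stat2 and Irf9, which switch on antiviral genes.

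Values are log2 units above or below the 75th percentile of each array, and single arrays are given in the order uMT PLN and uMT MLN, against WT PLN 1, WT PLN 2, WT MLN 1 and WT MLN 2. Between 50.1% and 56.8% of the spots were well above background on the 6 arrays, and the arrays correlated with each other at 0.978 to 0.991 across genes. The label of CD8+ T cells was met on every array: Cd8b1, a chain of the CD8 co-receptor, stood at 7.85 and 7.82 in uMT against 7.69, 7.91, 7.74 and 7.88 in WT. All 16 genes of the T cell identity list were measured, with a median difference of 0.02. Cd4 was also well above background on all 6 arrays, at 0.69 and -0.12 in uMT against -0.20, 0.72, -0.36 and 0.64 in WT. A second, dimmer Cd4 probe was well above background on 2 of the 4 WT arrays and on neither uMT array. The disrupted gene, Ighm, was not analysed here because no probe could be named as Ighm. The B cell gene Ms4a1, which encodes a surface antigen of B cells, was not well above background on any of the 6 arrays, and other B cell genes are given with the other cell types.

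Over both lymph nodes, Trnp1 and Mtus2 rose in uMT cells and Stxbp4, Utp14b, Fam83e and Adig fell. With 1 predicted gene and 2 probes without a gene name these were 9 of 25738 features past the threshold (limma, Benjamini-Hochberg adjusted p under 0.05), which is 0.035%. Of these, 4 (0.0155%) were higher and 5 (0.0194%) lower. At an unadjusted p under 0.05 there were 4532 features (17.6%). In a fit to the 6 uMT and WT arrays alone, 0 features passed with site as the term and 0 with site and slide, although 2112 and 4078 had an unadjusted p under 0.05. With each knockout array and its WT partner on the same slide as a block, 0 passed and 3144 had an unadjusted p under 0.05. Leaving out any 1 of the 8 total-cell arrays, AID KO included, also ended each of the 9 calls: 0 features passed, except without uMT PLN, where 9 others did. With normexp, another background correction, 30 features were higher and 23 lower, and in the deposited series matrix 51 and 21.

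Trnp1, which encodes a nuclear protein known from neural progenitors of the mouse cortex, stood at 2.16 and 1.78 in uMT against 0.45, 0.41, -0.05 and -0.13 in WT. Both uMT arrays lay above all 4 WT arrays, and in each lymph node the gap was wider than that between the WT arrays of the node. The difference was 1.80 ± 0.10 (standard error of the fit, 2 uMT and 4 WT arrays), or 3.48-fold, with a limma adjusted p of 0.0236. Mtus2, which encodes a scaffold protein on microtubules, stood at -0.33 and -0.64 in uMT against -2.11, -1.66, -2.34 and -1.99 in WT. Its difference was 1.54 ± 0.10, or 2.91-fold, with the same adjusted p, and again no WT array reached a uMT array. The predicted gene Gm1976 was 1.69 ± 0.12 higher (adjusted p by limma 0.0294), and a probe without a gene name, not well above background on any WT array, was at least 1.11-fold higher.

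Utp14b, a retrocopy of the ribosomal RNA processing gene Utp14a that mouse spermatogenesis needs, stood at -3.50 and -3.98 in uMT against -1.90, -1.94, -2.32 and -2.38 in WT. Its difference of -1.60 ± 0.10 had a limma adjusted p of 0.0236, and whether the probe also reads Utp14a was not tested. Fam83e, of a family of proteins that bind casein kinase 1, stood at -3.98 and -4.25 in uMT against -2.76, -2.56, -2.74 and -2.41 in WT, a difference of -1.50 ± 0.09. Both genes were dim but above background on all 6 arrays, and the WT values did not reach the uMT values.

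Adig, which encodes adipogenin of fat cells, stood at -4.27 and -5.18 in uMT against -3.50, -2.74, -3.65 and -3.10 in WT, a difference of -1.48 ± 0.08. Its uMT MLN spot was not well above background. The other tested fat cell genes, 3 in all, did not pass the threshold. Stxbp4, which encodes a partner of the membrane fusion protein syntaxin 4, stood at -6.03 and -6.64 in uMT, not well above background on either array, against -4.41, -3.99, -4.45 and -3.90 in WT. It was at least 1.65-fold lower, with a limma adjusted p of 0.0384. With normexp (an offset of 50) the differences of Stxbp4, Adig and Fam83e were -0.42, -0.47 and -0.62 and none of these passed, while Utp14b, at -0.81, passed (limma adjusted p 0.0160).

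**Figure D1:**
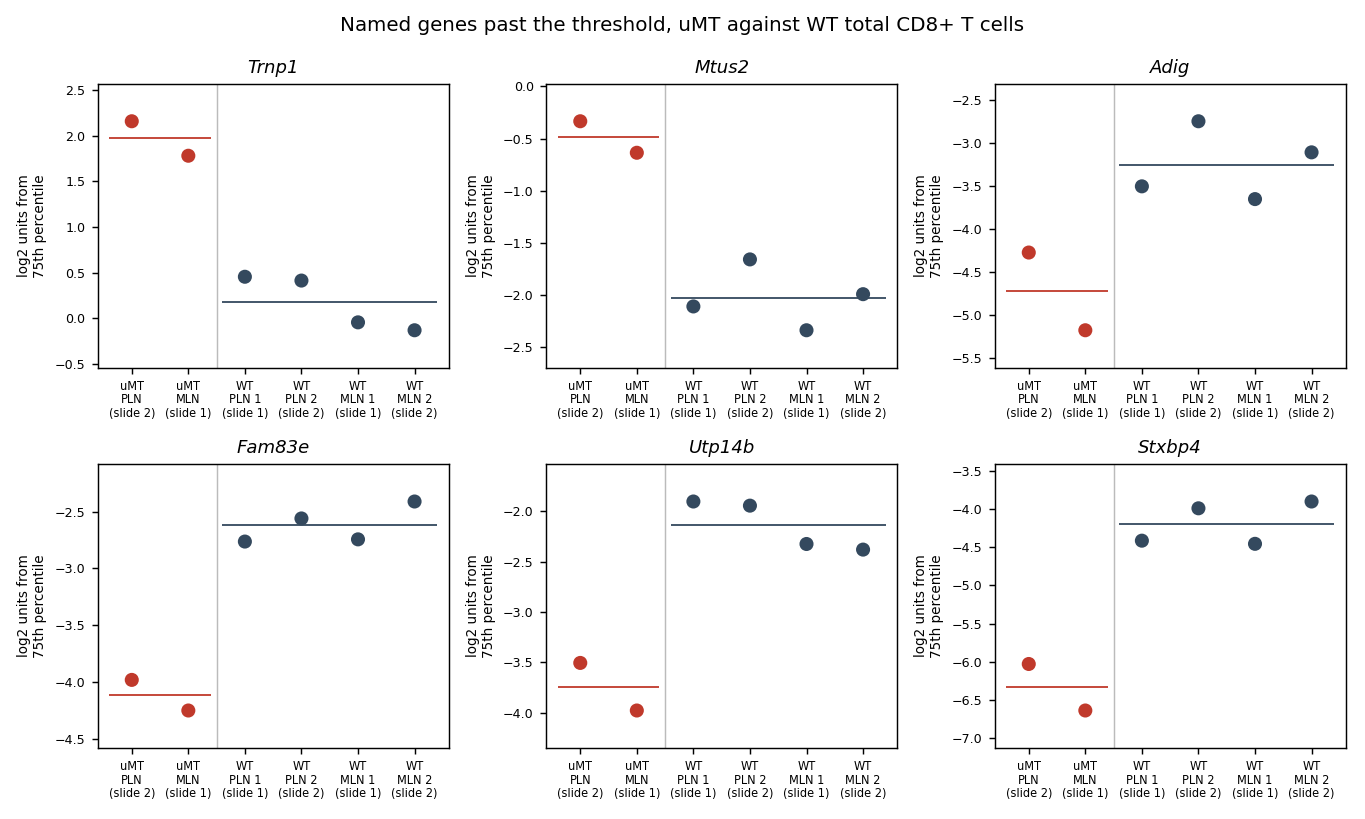
The 6 named genes past the threshold, in log2 units from the 75th percentile of the array, with 1 point per array, uMT in red left of WT in blue and lines at the group means. In each panel both uMT arrays lie outside the range of the 4 WT arrays, from Trnp1 at 2.16 and 1.78 in uMT to Stxbp4 at -6.03 and -6.64.

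Genes on 1 side of all WT arrays were common. Both uMT arrays lay above all 4 WT arrays for 2492 of 25735 features (9.68%) and below all 4 for 2374 (9.22%), so that non-overlap alone sets few genes apart. Among the bright genes just short of the threshold, Tsc22d3, known as the glucocorticoid-induced leucine zipper, stood at 5.75 and 5.87 in uMT against 4.84, 4.77, 4.57 and 4.56 in WT (limma adjusted p 0.0663). Its relative Tsc22d1 stood at 1.62 and 1.21 in uMT against 0.65, 0.63, 0.35 and 0.38 in WT (adjusted p 0.0534). Both uMT arrays were above every WT array for both genes.

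Fcgr2b, the inhibitory receptor for IgG, stood at -4.07 and -3.50 in uMT against -5.26, -6.89, -6.79 and -7.12 in WT, where it was not well above background on any array. That is at least 2.21-fold higher, with a limma adjusted p of 0.0731, and a second Fcgr2b probe was not well above background on any of these arrays. The first probe was well above background on only 2 of the 12 arrays, both of them these uMT arrays. It thus met the filter only through the group where it was high, and its p-value and non-overlap are no separate support. Guca2a, which encodes the gut peptide guanylin, was lower without passing the test, at -3.05 and -3.25 in uMT against -1.89, -1.64, -1.73 and -1.73 in WT (adjusted p by limma 0.0534).

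Beside the immunoglobulin heavy chain locus on chromosome 12, the dim gene Adam6b stood at -4.67 and -6.07 in uMT against -2.82, -2.58, -2.90 and -2.60 in WT. Zfp386, a zinc finger gene, stood at 2.41 and 2.62 against 3.67, 3.60, 3.60 and 3.65, and Crip1, a small LIM protein gene, at 5.34 and 5.41 against 6.27, 6.41, 6.17 and 6.48. None of these 3 passed in total cells (adjusted p by limma 0.0534, 0.0607 and 0.0691). In naive PLN cells, which share no array with this comparison, uMT minus AID KO was -1.23 for Zfp386 and -1.33 for Crip1, with limma adjusted p of 0.0307 and 0.0233. In that naive comparison 91 of 25734 features (0.354%) passed, 43 (0.167%) higher and 48 (0.187%) lower in uMT. Over the 21 tested genes of this chromosome stretch the median difference in total cells was 0.05, with 13 higher and 8 lower. In naive cells the median of these genes for uMT minus AID KO was -0.02, with 7 higher. The naive value of Adam6b is not given here. The tissue kallikrein gene Klk1b24 stood at 0.24 and -0.03 in uMT against -1.97, -1.77, -1.66 and -1.63 in WT, without passing the test (adjusted p by limma 0.0663).

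Of the 9 features past the threshold in total cells, 0 passed between uMT and AID KO naive cells, where the lowest limma adjusted p among them was 0.0902 for Trnp1. Naive cells of WT mice were not analysed here, so that a difference from WT shared by both knockouts would not show in that comparison. Against the same 4 WT arrays, total AID KO cells differed by 1.07 for Mtus2, -1.72 for Utp14b, -2.09 for Fam83e and -1.32 for Adig, with limma adjusted p of 0.0194, 0.00514, 0.00423 and 0.00555. Trnp1 and Stxbp4 differed there by 0.52 and -0.92, with adjusted p by limma of 0.0873 and 0.0735, and Gm1976 by 1.19 (0.0221). Between AID KO and WT 226 of 25738 features (0.878%) passed. Both comparisons use the same WT arrays, so that these values are not independent of the uMT differences.

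Each uMT array was also set against the WT array of its own site and slide. On slide 2, uMT PLN was past 2-fold higher than WT PLN 2 for 332 features (1.29%) and past 2-fold lower for 830 (3.22%). On slide 1, uMT MLN was past 2-fold higher than WT MLN 1 for 984 features (3.82%) and lower for 1012 (3.93%). These pairs share no array. Both pairs were past 2-fold higher for 74 features, which is 22.3% of the PLN set and 7.52% of the MLN set, and past 2-fold lower for 158, which is 19% and 15.6%. Against the WT array on the other slide, uMT PLN was past 2-fold higher for 5.13% of features and lower for 0.987%, and uMT MLN higher for 2.07% and lower for 9.39%. For scale, the WT arrays of each node also lay on different slides, WT PLN 1 and WT MLN 1 on slide 1 and the others on slide 2. WT PLN 1 was past 2-fold above WT PLN 2 for 0.532% of features and below it for 7.39%. WT MLN 1 was past 2-fold above WT MLN 2 for 1.32% and below it for 8.85%. In both nodes the slide 1 array was thus more often the lower one.

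Among the named genes past 2-fold in both pairs, those with both uMT arrays on 1 side of every WT array were taken. Of these, 22 were higher and 28 lower, chosen by fold and non-overlap and not by the test. In 6 of the 22 the WT spots, and in 11 of the 28 the uMT spots, were not well above background. Dusp4, a phosphatase that restrains MAP kinases, was among those lower in both: it stood at -1.91 and -2.68 in uMT against -0.66, -0.59, -0.64 and -0.61 in WT. The WT values lay within a narrow band, and both uMT arrays lay below it as this choice of genes requires. Dusp4 did not pass the test (limma adjusted p 0.0966).

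In MLN alone, where 1 uMT array met 2 WT arrays and its spread was taken from the other groups, 9 of 25738 features (0.035%) passed, 5 (0.0194%) higher and 4 (0.0155%) lower. In PLN alone 0 passed (0%), with 2088 (8.11%) at an unadjusted p under 0.05 against 5186 (20.1%) in MLN. Plcl1, which encodes a phospholipase C-like protein without catalytic activity, stood at -1.67 in uMT MLN against -6.75 and -5.92 in WT MLN, and at -5.10 in uMT PLN against -5.18 and -5.17 in WT PLN. It was at least 8.63-fold higher in MLN, with a limma adjusted p of 0.0470. Adam12, a membrane metalloprotease gene, stood at -1.98 in uMT MLN against -6.13 and -4.54 in WT MLN, and Aplnr, the apelin receptor gene, at -4.22 against -6.83 and -5.45. Each was well above background on only 1 of the 4 WT arrays. The Aplnr value on uMT MLN lay close to the lowest such value of that array, -4.48. A second Adam12 probe was not well above background on any array, at -6.72 in uMT MLN against -6.79 and -7.12 in WT MLN. In PLN, Adam12 stood at -5.41 in uMT, between the WT values of -6.08 and -4.91, and Aplnr at -4.60 in uMT, above the WT values of -6.29 and -4.89.

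The falls in MLN, like the rises, rested on the single uMT MLN array. Nsdhl, which encodes a sterol dehydrogenase of cholesterol synthesis and has 1 probe on the array, stood at -6.74 in uMT MLN against -1.27 and -1.01 in WT MLN, and at -1.10 in uMT PLN against -1.19 and -1.12 in WT PLN. Of the 6 arrays only uMT MLN was low, by at least 10.1-fold, and the spot there was not well above background. Zfp821, a zinc finger gene, stood at -4.43 in uMT MLN against -1.99 and -2.10 in WT MLN, at least 5.23-fold lower, and at -2.00 in uMT PLN against -1.90 and -1.96. The count of MLN calls was 0 without WT MLN 1, 1 without WT PLN 1, AID KO PLN or AID KO MLN, and 2 without WT PLN 2 or WT MLN 2.

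The difference in MLN was then tested against that in PLN, and 2 of 25738 features (0.00777%) passed, both lower in MLN. One was Nsdhl, at -5.48 ± 0.19 (limma adjusted p 0.0170), and the other a probe without a gene name. Leaving out any 1 of the 4 WT or 2 AID KO total-cell arrays ended both calls. Since the uMT MLN and uMT PLN arrays lie on different slides, a difference between the lymph nodes and a difference between the slides cannot be told apart here.

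Genes of the type I interferon response were higher on the uMT MLN array and not on the uMT PLN array. Of 57 listed genes 52 were tested. Their median difference was 1.03 in the MLN pair (uMT MLN minus WT MLN 1) and 1.25 against WT MLN 2, and it was -0.02 in the PLN pair (uMT PLN minus WT PLN 2) and -0.17 against WT PLN 1. The medians over all features in these 4 differences were 0.01, -0.10, -0.02 and 0.06. Between the WT arrays of 1 site the list's medians were 0.10 in PLN and 0.07 in MLN, a fraction of the difference between uMT MLN and WT MLN.

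No gene of the list passed in MLN, where the lowest limma adjusted p was 0.122, in PLN or in both nodes together. At an unadjusted p under 0.05 there were 45 of 52 in MLN, against 20.1% of all features, and 0 in PLN. Of the 52 genes, 49 lay above both WT MLN arrays (30.4% of all features) and 27 were past 2-fold higher in the MLN pair (3.82% of all features). Only 8 lay above both WT PLN arrays (31.6% of all features). Tested as a difference between the nodes, 21 of 52 had an unadjusted p under 0.05, against 9.05% of all features, and 0 passed after adjustment (lowest limma adjusted p 0.501). The list and the array that carries it were known from earlier results of these data.

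**Figure D2:**
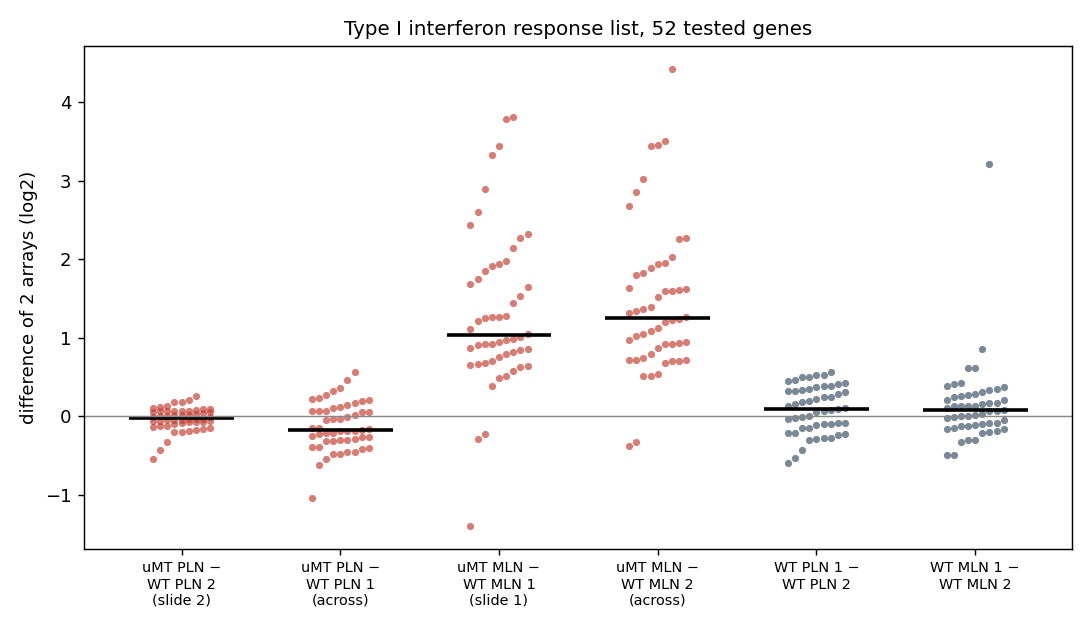
Differences between 2 arrays in log2 units for the 52 tested genes of the type I interferon response list, with 1 point per gene and a black line at the median. The uMT MLN array lies above both WT MLN arrays, with medians of 1.03 and 1.25, while the medians for uMT PLN are -0.02 and -0.17 and those between WT arrays 0.10 and 0.07.

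Promoter stretches are shown because the complex that holds Stat2 and Irf9 is known to act through repeats of the letters GAAA. The motif GAAA, any 2 bases, GAAA was searched on both strands in the 250 bases before each gene start of the RefSeq promoter table (GRCm38.p6). It was found for 16 of the 41 tested list genes with a promoter in the table (39.0%), against 368 of 11057 tested genes with a promoter (3.33%). For genes that answer interferon-gamma or present antigen, given below, the share was larger, at 13 of 24 (54.2%). A match is a description of letters and not a binding site. The 4 genes with the widest MLN pair differences among those with a match are printed, leaving out Ifit3b, whose stretch is identical to that of Ifit3. Each line gives the 60 bases around the match nearest the gene start, 5′ to 3′ on the strand of the gene, with the match in capitals.
Rsad2: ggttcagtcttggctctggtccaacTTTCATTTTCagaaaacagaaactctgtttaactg
Ifit3: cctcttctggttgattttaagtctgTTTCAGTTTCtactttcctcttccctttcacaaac
Ifit1: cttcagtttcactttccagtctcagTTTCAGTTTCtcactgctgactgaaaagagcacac
Isg15: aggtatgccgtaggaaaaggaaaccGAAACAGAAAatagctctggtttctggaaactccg
The stretches are at chr12:26456538-26456597 on the minus strand for Rsad2, chr19:34583382-34583441 on the plus strand for Ifit3, chr19:34640779-34640838 on the plus strand for Ifit1 and chr4:156200850-156200909 on the minus strand for Isg15. The capitals read the motif on the reverse strand in the first 3 and on the strand of the gene in Isg15. In the MLN pair the median difference was 1.27 for the 16 genes with a match and 0.85 for the 25 without one, and in the PLN pair -0.04 and -0.01. The gap between these medians was not tested, and Oas1g, which has a match, stood at -1.40 in the MLN pair.

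Rsad2, which encodes viperin, an enzyme that blocks viral replication, stood at -0.81 and 1.75 in uMT against -0.34, -0.81, -2.06 and -2.68 in WT. The uMT MLN value was the highest of the 6 and the uMT PLN value equalled WT PLN 2. Its MLN difference was 3.85 ± 1.18 (limma adjusted p 0.193). Ifit3, of a family that binds foreign RNA, stood at 2.53 and 4.49 in uMT against 2.72, 2.66, 1.16 and 1.05 in WT, and its probe may share sequence with Ifit3b, which was not tested. Isg15, a ubiquitin-like modifier, stood at 3.68 and 5.54 in uMT against 3.61, 3.85, 3.21 and 3.51 in WT.

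In all 3 genes uMT PLN fell within or beside the WT PLN arrays, and uMT MLN lay above every WT array. The factor genes differed by less. Irf7, which amplifies interferon production, stood at 5.72 and 6.60 in uMT against 5.53, 5.62, 4.85 and 5.00 in WT. Stat2 stood at 2.55 and 3.58 in uMT against 2.75, 2.50, 2.67 and 2.26 in WT. The receptor genes were not higher on uMT MLN: Ifnar1 stood at 2.52 and 2.54 in uMT against 2.64, 2.96, 2.61 and 2.75 in WT. Ifnar2 stood at 2.03 and 2.05 in uMT against 2.29, 2.20, 2.35 and 2.27 in WT.

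The WT arrays differed by node in the same genes. WT MLN was below WT PLN on both slides for 48 of the 52 list genes, against 36.3% of all features, with list medians of -0.33 on slide 1 and -0.32 on slide 2. uMT MLN was above uMT PLN for 50 of the 52, against 40.5% of all features. In most of these genes uMT cells thus had their higher value in MLN and WT cells in PLN. In naive PLN cells, uMT minus AID KO had a list median of -0.20, with 6 of 52 higher.

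Ly6a, which encodes Sca-1, a surface protein of activated and memory T cells in C57BL/6 mice and itself induced by interferon, stood at 2.21 and 3.55 in uMT against 1.95, 1.66, 1.81 and 1.47 in WT. Both uMT arrays were above all WT arrays, uMT MLN by far the most. The difference over both nodes was 1.16 ± 0.27 and did not pass (limma adjusted p 0.157). Socs1, which restrains cytokine receptor signalling, stood at 3.07 and 3.83 in uMT against 2.57, 2.66, 2.40 and 2.62 in WT, again above every WT array on both (adjusted p by limma 0.184).

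Genes that answer interferon-gamma or present antigen were also higher on uMT MLN, by less. Of 32 tested, 31 were higher in the MLN pair, with a median of 0.41, and 9 in the PLN pair, with a median of -0.06. Of all 25738 features, 13212 were higher in the MLN pair and 12304 in the PLN pair. WT arrays of 1 site had medians of 0.05 and 0.10 for this list. The list depended on the processing: its fitted MLN median of 0.44 became 0.31 with quantile normalization, with 24 of 32 higher. In the series matrix it was 0.28, with 24 of 31 higher. Iigp1, an immunity-related GTPase, stood at 1.59 and 3.28 in uMT against 1.64, 1.25, 0.87 and 0.56 in WT. Cxcl10, a chemokine that draws activated T cells, stood at -0.67 and 1.35 in uMT against -0.28, -0.46, -0.63 and -0.70 in WT, so that only uMT MLN stood out. No gene of the list passed in either node.

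**Figure D3:**
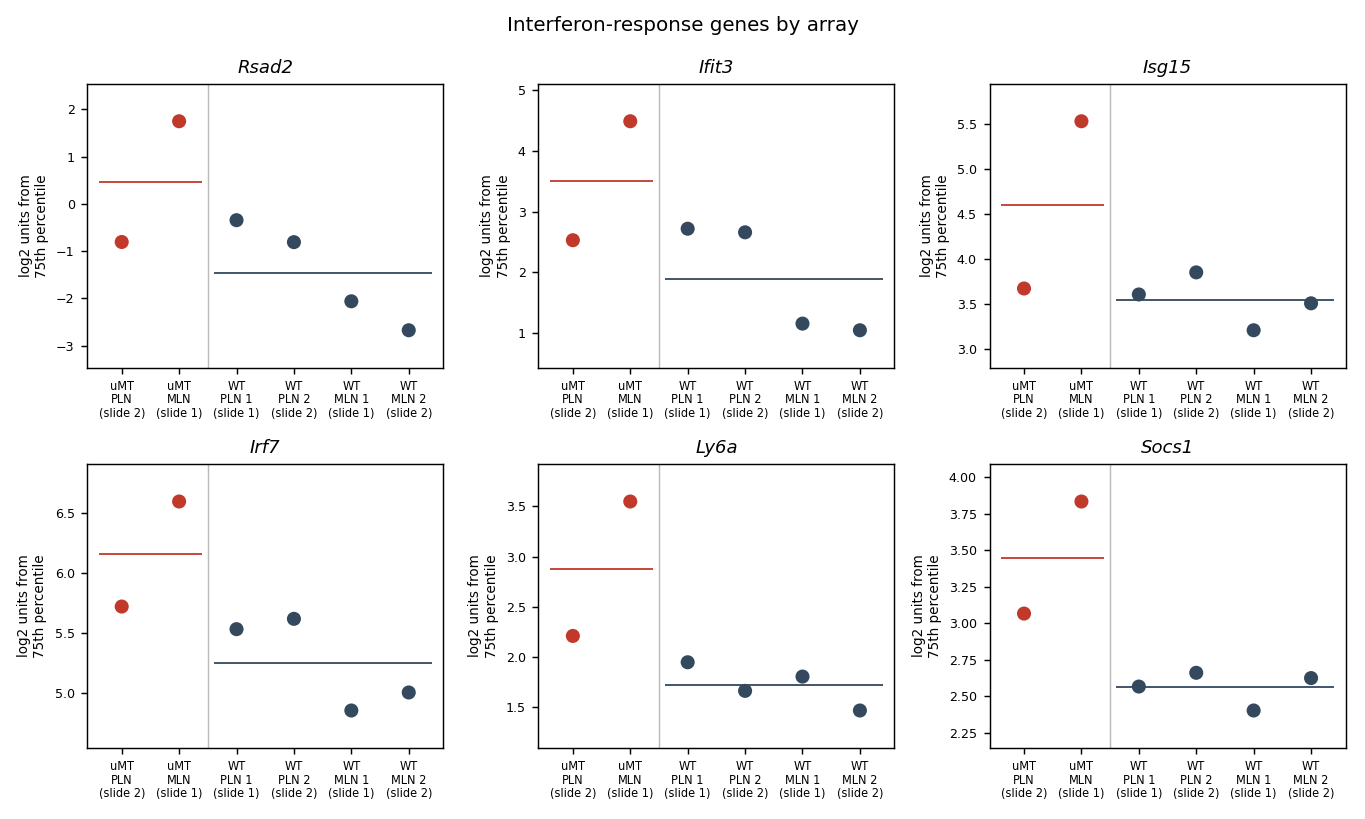
Levels of 6 interferon-response genes in log2 units from the 75th percentile of the array, with 1 point per array, uMT in red left of WT in blue and lines at the group means. The uMT MLN array is the highest in each panel, at 1.75 for Rsad2 and 3.55 for Ly6a, while uMT PLN lies near the WT PLN arrays for Rsad2, Ifit3, Isg15 and Irf7.

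Genes of other T cell programmes differed by less. On the list of naive and quiescent cells, 17 of 23 tested genes were higher in uMT, with a median of 0.12 and 0 past the threshold. Il7r, the receptor chain for the survival cytokine IL-7, stood at 6.73 and 6.27 in uMT against 6.09, 6.24, 5.77 and 5.94 in WT, above every WT array on both. On the effector and memory list, 26 of 39 were higher, with a median of 0.16 and 0 past the threshold (0.08 with normexp and 0.05 in the series matrix). Cx3cr1, a chemokine receptor of cytotoxic effector cells, stood at -4.52 and -1.47 in uMT against -4.58, -5.14, -3.69 and -4.88 in WT. The granzyme gene Gzma stood at -0.08 and 2.02 against -0.35, -0.58, 0.86 and 1.02, higher in uMT within each node.

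Among receptors, Ctla4, an inhibitory receptor of activated T cells, stood at -0.54 and -0.35 in uMT against -1.30, -1.25, -2.17 and -2.19 in WT (limma adjusted p 0.141). Cxcr4, a chemokine receptor that holds cells in marrow and lymphoid tissue, stood at 2.20 on both uMT arrays against 1.15, 1.39, 0.71 and 1.12 in WT (adjusted p by limma 0.0896). Both genes were above every WT array on both uMT arrays, without passing the test. Over the whole lists, 11 of 19 activation and inhibitory receptors and 15 of 26 trafficking genes were higher, with medians of 0.01 and 0.02.

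The immediate early genes, which respond within minutes to antigen receptor signals and to handling, split. Of 37 tested 20 were higher, with a median of 0.03. Maff, a small MAF factor, stood at -0.91 and -0.95 in uMT against -0.05, -0.20, 0.64 and 0.70 in WT. Nr4a1, a nuclear receptor induced by the antigen receptor, stood at 4.32 and 4.08 against 4.75, 4.70, 5.26 and 5.14. Dusp1, a further MAP kinase phosphatase, went the other way, at 5.14 and 5.34 in uMT against 4.67, 4.60, 4.61 and 4.55 in WT. None of the 37 passed. The chaperone gene Hspa1a, a marker of stress, stood at 0.01 and 0.84 in uMT against 2.15, 2.23, 1.98 and 1.72 in WT (limma adjusted p 0.121), while the 12 heat shock genes had a median of -0.06.

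Cell division genes leaned lower in uMT. Of 40 tested, 35 were lower, with a median of -0.23 against -0.01 over all features, 10 lay below all 4 WT arrays (9.22% of all features did) and 0 passed. The medians were -0.15 in the PLN pair and -0.20 in the MLN pair, while WT PLN 1 minus WT PLN 2 gave 0.27 and WT MLN 1 minus WT MLN 2 gave 0.20. The gap between slides within WT was therefore as wide as that between uMT and WT. Mki67, a mark of cycling cells, stood at -0.66 and -0.42 in uMT against 0.30, -0.13, 0.18 and -0.13 in WT. Aurkb, a kinase of chromosome segregation, stood at -4.06 and -3.60 against -2.97, -3.53, -2.99 and -3.61, and there uMT MLN and WT MLN 2 were level. Of 19 cholesterol synthesis genes 15 were lower, with a median of -0.19, and the WT gaps of 0.11 and 0.14 were again of similar size. Of these 19 genes 0 passed over both nodes, and Nsdhl, given above, passed in MLN.

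**Figure D4:**
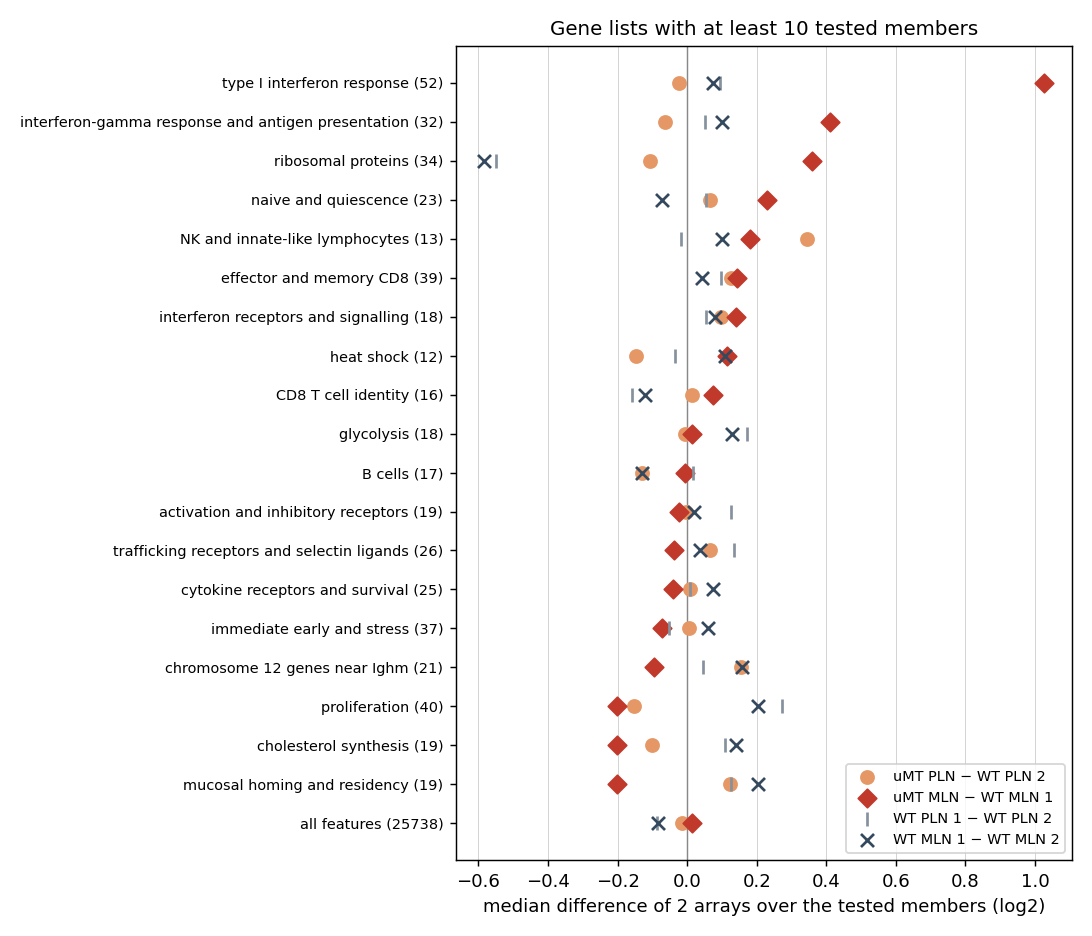
Median difference between 2 arrays, in log2 units, over the tested members (number in brackets) of each gene list with at least 10 tested members, for the uMT pairs of 1 site and slide (circles and diamonds) and for the WT arrays of 1 site (bars and crosses). Of the lists drawn, type I interferon in the MLN pair, at 1.03, lies farthest from 0 (red cell genes, with 8 tested members and 1.40 in that pair, are not drawn), while for proliferation and ribosomal proteins the WT arrays differ as much as or more than the uMT pairs.

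Transcripts of other cell types differed between some of these samples, and their part in the results was not tested. In bulk samples, fewer cells of a type and less RNA per cell cannot be told apart. Red cell genes were higher in uMT for 6 of 8 tested, with a median of 0.97 and 0 past the threshold. The median was 0.53 with normexp, and 0.03 over 14 genes, 7 of them higher, without the filter on dim probes. It was 1.40 in the MLN pair and 0.78 in the PLN pair, while the WT arrays of 1 node differed by -0.75 in MLN and -1.07 in PLN. The haemoglobin gene Hba-a1 stood at -0.69 and 2.09 in uMT against -3.66, -2.13, 0.47 and 1.06 in WT, higher in uMT within each node and higher in MLN within each genotype. The summed level of the 8 genes, in multiples of the 75th percentile, was 2.37 and 10.5 in uMT, and ranged from 1.11 to 5.65 in WT.

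Jchain, which joins secreted IgA and IgM in plasma cells, stood at -7.65 and -6.81 in uMT against -7.31, -7.42, -4.37 and -3.58 in WT. Only the WT MLN arrays were raised, and the MLN difference did not pass (at least 1.42-fold lower, limma adjusted p 0.108). Vpreb3, a B cell gene, stood at -5.28 and -6.05 in uMT against -4.89, -4.83, -4.21 and -3.94 in WT, at least 1.33-fold lower without passing the test. Of 30 B cell markers 17 were tested, 11 of them lower in uMT, with a median of -0.11. This direction turned in the series matrix and with probes well above background on all 12 arrays, both with a median of 0.07 and 6 of 10 genes higher, and the median was -0.05 with normexp and -0.03 with quantile normalization. The summed level of these 17 genes was 25.8 and 24.0 in uMT and 22.4 to 24.8 in WT, carried mainly by Cd72 and Cd79b. Cd72 stood at 3.68 and 3.25 in uMT against 3.19, 3.57, 3.24 and 3.57 in WT, and Cd79b, a chain of the B cell receptor complex, at 2.23 and 2.52 against 2.18, 1.96, 2.30 and 2.26, so that neither was lower in uMT as a group. Macrophage markers (5 of 13 tested) summed to 2.95 and 2.27 in uMT and 3.02 to 3.81 in WT.

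Genes of natural killer and innate-like lymphocytes, some of which memory CD8+ T cells also express, were higher in uMT for 11 of 13 tested, with a median of 0.37 and 0 past the threshold. The median was 0.14 with normexp, 0.07 over the 2 genes of the series matrix and 0.06 over the 3 genes well above background on all 12 arrays. Their summed level was 55.3 and 38.1 in uMT and 37.0 to 49.2 in WT, so that the groups overlapped. Klra8, an activating receptor of the Ly49 family, stood at 0.13 and -0.25 in uMT against -0.22, -0.62, -1.11 and -1.21 in WT. The Ly49 genes are near-identical copies whose probes may share signal, and Klra8 did not pass (limma adjusted p 0.102).

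**Figure D5:**
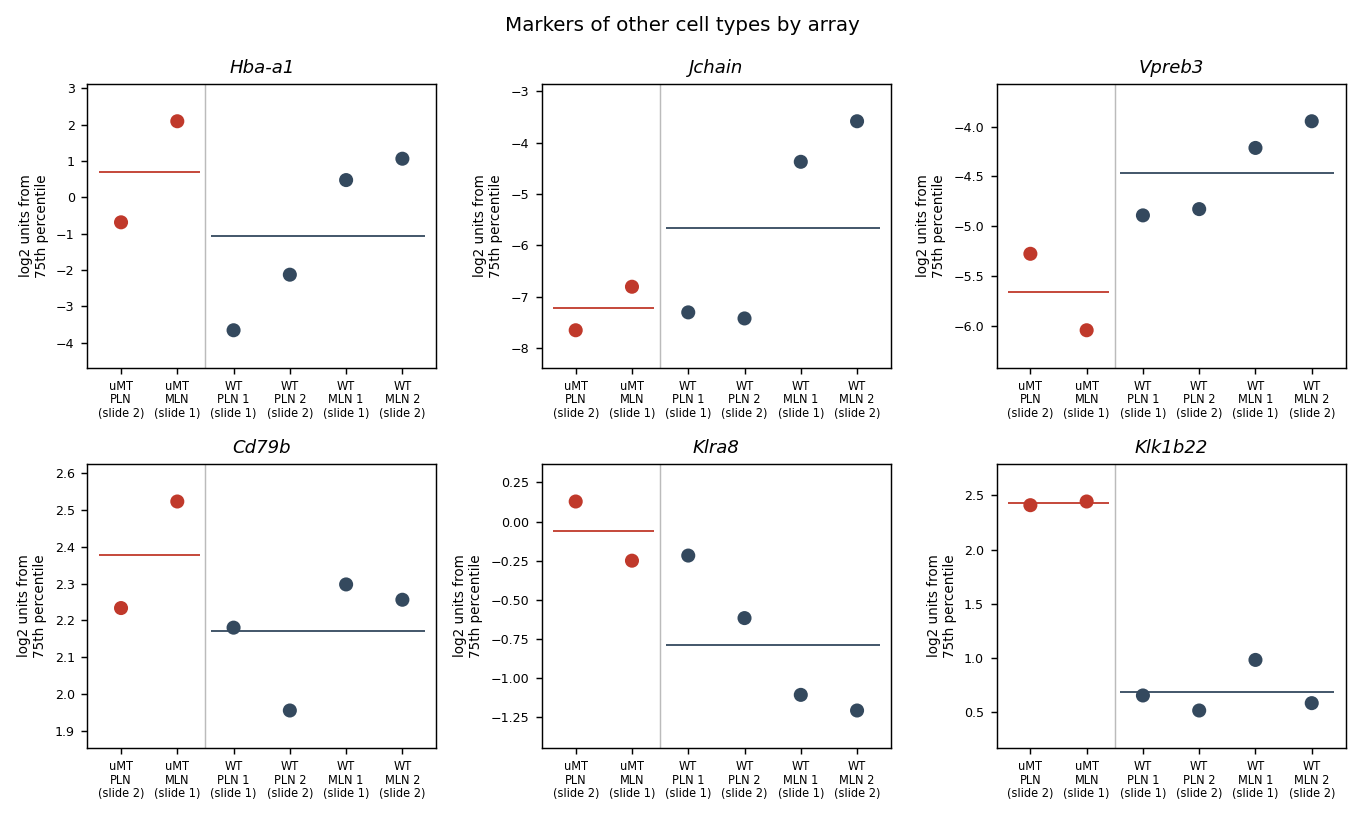
Levels of 6 genes of other cell types in log2 units from the 75th percentile of the array, with 1 point per array, uMT in red left of WT in blue and lines at the group means. Hba-a1 is highest on uMT MLN at 2.09, Jchain stands out only in WT MLN at -4.37 and -3.58, and Klk1b22 is higher on both uMT arrays at 2.41 and 2.44 than in WT. Klk1b22 is from the exocrine gland list, where 5 of 8 tested genes were higher in uMT. The list's median was 0.01 in the PLN pair and 0.46 in the MLN pair. Whether Klk1b probes share signal was not tested.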

How the data were processed

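RNA of sorted CD8+ T cells was labelled with Cy3 and hybridized to 12 Agilent arrays. The deposited scanner files give the intensity of each spot, extracted with Agilent Feature Extraction 11.0.1.1 per the submitters' processing notes, with other values (flags of 0 or 1) in the deposited columns for spots well above background, saturated or outlying. As an alternative, the log2 values of the deposited series matrix were used. Here log2 processed intensities were shifted to the 75th percentile of each array, outlier spots (61 to 173 on the 6 arrays) were left out, and no spot was saturated. The number of arrays limits the precision. Probes well above background on at least 2 of 12 arrays were kept, the brightest for each gene. Transcript accessions were matched to a RefSeq gene table (GRCm38.p6), which gave 1 symbol for 32994 of 56605 probes, several for 0 and none for 23611. This left 25738 features, 13882 of them named, in 1 fit over all 12 arrays (limma 3.58.1, R 4.3.3). Terms were site, slide, AID KO, uMT and, for naive cells, an own intercept, uMT and Sca1p, which left 4 residual degrees of freedom, or 3 with a term for uMT by site. All p-values were two-sided and adjusted by Benjamini-Hochberg over all features, with a threshold of 0.05. In simulated data with independent errors, the fit recovered 29 of 50 genes at a true log2 size of 1 and 38 of 50 at 2. It recovered 49 and 45 of 50 at sizes of 3 and 4. The simulation held no slide by genotype difference, so that it cannot speak to that limit. Where all arrays of a group were not well above background, a fold is a bound, computed against the dimmest probe that the scanner still put well above background. The text names the 12 largest rises and falls over both nodes and 8 within a node, past the threshold and on 1 side of all WT arrays, filled up by lowest p, leaving out predicted names, and up to 6 members of each list. Not all of these are described. The members, lists and the 12-array fit were chosen with earlier results of these data known. Some genes of the lists are not reported here.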

Additional observations from a re-analysis of the deposited data

Results flagged for a closer look

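Nsdhl differed between the lymph nodes by the test of the difference itself, at -5.48 for uMT minus WT in MLN minus that in PLN (limma adjusted p 0.0170). The value rests on 1 spot of the uMT MLN array at -6.74, and the call was lost without any 1 of the 6 other total-cell arrays that could be left out.

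The medians of the type I interferon response list had opposite signs, 1.03 in the MLN pair and -0.02 in the PLN pair, where the second is also the median of all features, a gap of 1.05. Those of the genes that answer interferon-gamma or present antigen did too, with 0.41 and -0.06, a gap of 0.474. Neither difference between the lists' medians was tested, and the conditions for naming a list here, at least 10 tested members and a difference wider than the WT arrays show, were set after the values were seen.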

How the results depend on the processing

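The 9 calls over both nodes became 53 with normexp, 18 with quantile normalization, 72 with the deposited series matrix, 0 without a filter on dim probes, 93 with probes well above background on all 12 arrays, and 2 without slide as a term. They became 0 with the 6 arrays and site, 0 with site and slide, and 0 with the replicate block. That pairing comes from slide and site and not from numbers in the labels. Of the 9 calls, 9 were kept under quantile normalization, 3 under normexp and 6 with the 8 total-cell arrays. The series matrix tested 2 of them and the stricter filter 4, and all of these were kept. Leaving out 1 array gave 0 to 9 calls, of which 0 were shared. In MLN the 9 calls became 278, 2, 1, 142, 3, 3 and 2 with normexp, quantile, series matrix, no filter, the stricter filter, the 8 total-cell arrays and no slide term, and 0 to 9 without 1 array. In PLN the 0 calls became 4 with normexp, 32 without a filter, and 0 to 1 without 1 array. The 2 calls for the difference between nodes became 18 with normexp, 0 with the series matrix, 1 without a filter, 0 with the stricter filter and 1 with the 8 arrays, and 0 to 0 without 1 array. The median of the type I interferon list in MLN was 0.963 to 1.11 without 1 array, and it lay within that range under the other alternatives. Lyrm9, named for the difference between nodes, turned to 0.19 with normexp. Normexp used the median signal and was set after the columns were seen. The causes of these changes were not tested. Trnp1 kept its direction under 18 alternatives, at 1.67 to 1.84, and its place past the threshold under 6.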
